A study of Homo sapiens with 36 samples.

Results

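A549 cells that had been kept in medium with cigarette smoke extract (CSE) for 3 weeks were compared between 2 concentrations, CSE 5% and CSE 1%. The comparison rests on 6 of the 36 arrays of the series, the 3 titled A549 CSE 5% 3 weeks and the 3 titled A549 CSE 1% 3 weeks, and on the 18417 genes that a transcript cluster of the array names by 1 symbol. A549 is an established line from a human lung adenocarcinoma that is used as a model of alveolar type II epithelium. Both groups grew in DMEM with little fetal bovine serum after a day without serum, received fresh CSE medium every day and were passaged weekly, so that they differed in the concentration of the extract and shared all else that is described. The series also holds control cells and cells at CSE 10%, and repeats all 4 conditions at 1 and 5 weeks; its purpose was to follow how lung epithelial cells respond to long exposure to smoke. The question here is what a 5 times stronger extract added to, or took from, the state of cells that already lived with the weaker one. One line of cells was used, and the replicates are described as independent experiments of it. The p-values therefore rest on the spread between replicate arrays of this line, pooled over all 36 arrays, and not on that between people or lines.

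Cigarette smoke carries polycyclic aromatic hydrocarbons that bind the aryl hydrocarbon receptor (AhR), a ligand-activated transcription factor that switches on CYP1 monooxygenases and its own inhibitors. Smoke oxidants also reach NF-kB, the transcription factor behind chemokine and cytokine genes of the inflamed airway epithelium, and the growth factor and stress kinase pathways that induce immediate early genes such as EGR1 and the NR4A orphan receptors. Lung epithelial cells under long exposure can take on mesenchymal features, divide less and alter their lipid synthesis.

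The deposited values are log2 levels after RMA, so that a log2 difference of 1 is a doubling. Arrays of CSE 5% correlated with each other at 0.993 to 0.996, those of CSE 1% at 0.988 to 0.993, and arrays of different concentration at 0.986 to 0.993. The 3 arrays of CSE 1% were the less alike. On the first principal component of the 36 arrays, which held 38.8% of the variance, CSE 1% replicates 1, 2 and 3 lay at 39.3, 13.1 and 2.14 and those of CSE 5% at 43.4, 26.4 and 47.1. A list of 30 centrosomal proteins, golgins and other genes of long transcripts moved along with it, with a mean log2 level of 8.71, 8.35 and 7.79 on the CSE 1% arrays and of 8.69, 8.42 and 8.71 on the CSE 5% arrays. The part of this order in the differences below was not tested. The epithelial markers KRT8, CDH1, EPCAM and KRT19 were read at equal or lower levels at CSE 5%, and KRT7 and KRT18 are not given here. KRT8 stood at 13.4 in both groups. CDH1 was read at 11.30 at CSE 1% and at 11.06 at CSE 5%, with all arrays of CSE 5% lower (adjusted p = 0.096 in limma). EPCAM stood at 10.8 and 10.3 (adjusted p = 0.053). KRT19 passed as lower at CSE 5%, with differences from -0.72 to -0.40 over 17 alternative fits, and lost the call in 6 of them. In the wider list of epithelial genes described below, DSP and CLDN4 also passed as lower, and CLDN2 and ELF3 as higher. None of these genes kept the call in a fit of the 6 arrays alone. The type II markers SFTPC, SFTPB and NAPSA were read at 6.07, 6.17 and 6.31 at CSE 1% and at 6.00, 6.10 and 6.30 at CSE 5%; without detection calls, it cannot be said whether they were expressed.

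Between the concentrations, 37 genes were higher and 22 lower at CSE 5% when a log2 difference beyond 1 and a B above 0 were required; B is the logarithm of the odds that a gene differs. That is 0.201% and 0.119% of the genes tested. In all 59 the 3 arrays of one group lay apart from the 3 of the other, as they did for 26.8% of all genes. By an adjusted p under 0.05, 802 genes were higher (4.35%) and 643 lower (3.49%), most of them by little: the median size among these 1445 was 0.47, and 819 of them differed by less than 0.5. The largest difference upward was 2.67 and the largest downward -2.30, against a median of -0.0305 over all genes and a 5th to 95th percentile from -0.30 to 0.46. A fit of the 6 arrays alone, with far fewer degrees of freedom, left 29 and 22 genes by the thresholds on fold and B and 198 and 136 by adjusted p. List counts from that fit, given below, stand beside this fall over all genes.

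**Figure D1:**
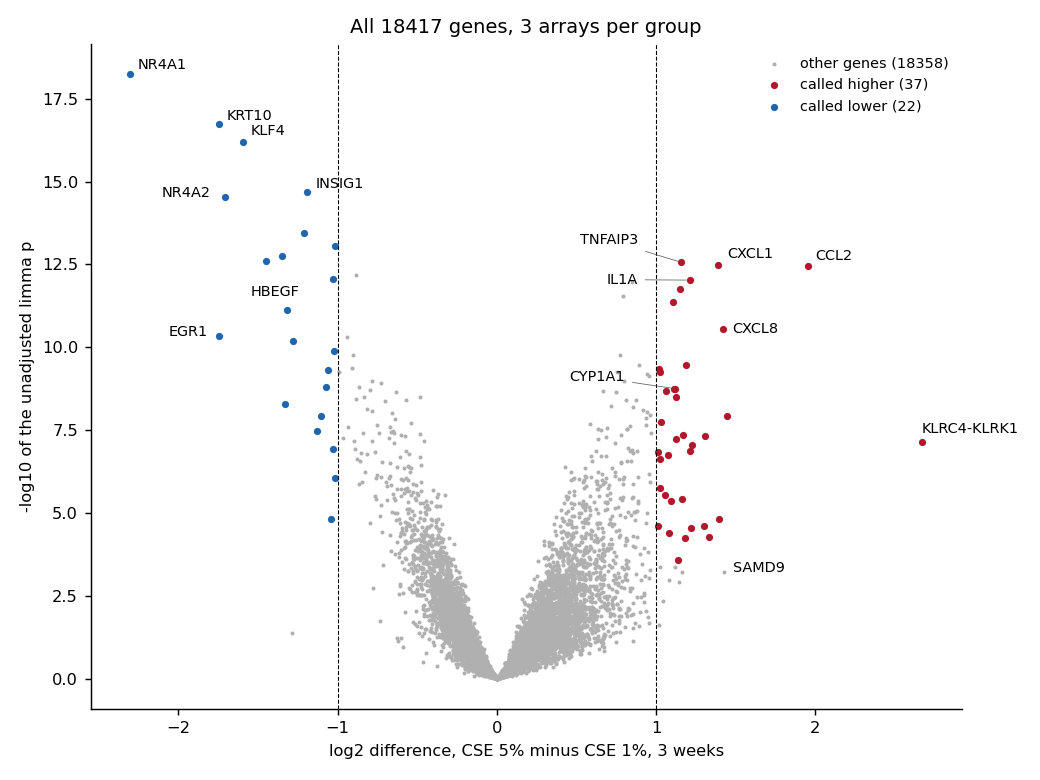
Log2 difference between CSE 5% and CSE 1% at 3 weeks (horizontal) against the negative log10 of the unadjusted limma p (vertical), a point for each of the 18417 genes, with 37 called higher in red, 22 called lower in blue and dashed lines at a log2 difference of 1 and -1. NR4A1, KRT10 and KLF4 stand out to the left, CCL2 and KLRC4-KLRK1 to the right, and SAMD9 lies beyond 1 without being called.

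The AhR pathway genes CYP1A1, CYP1B1 and TIPARP were higher at the stronger extract. They were the members that passed the adjusted p among 8 measured, and all 3 were higher, against 4.35% of all genes. The median of the list was 0.20. CYP1A1 (transcript cluster 7990391), the monooxygenase that oxidises benzo[a]pyrene, was read at 5.52, 5.62 and 5.57 at CSE 1% and at 6.63, 6.74 and 6.69 at CSE 5%. The groups were well apart and tight, with a log2 difference of 1.11 (standard error 0.13, adjusted p = 1.1e-06), or 2.17-fold. CYP1B1 (8051583), a related enzyme of hydrocarbon and estrogen metabolism, had levels of 11.70, 11.57 and 11.16 and of 12.38, 12.14 and 12.41, a difference of 0.84 (adjusted p = 3.4e-05, and 0.051 in the fit of the 6 arrays alone). TIPARP (8083569), a mono-ADP-ribosyltransferase that represses AhR in a feedback loop, went from 11.39, 11.28 and 11.18 to 12.12, 12.13 and 12.15, a difference of 0.85 (standard error 0.07, adjusted p = 2.1e-09). In control cells of the same week the mean levels were 5.62 for CYP1A1, 8.19 for CYP1B1 and 9.15 for TIPARP, and the differences of CSE 1% from control were -0.052, 3.29 and 2.13 (adjusted p = 0.89, 1.1e-17 and 1.7e-18). The receptor AHR itself (0.24, adjusted p = 0.44), ARNT (-0.015, adjusted p = 0.94), CYP1A2 (-0.21, adjusted p = 0.27), NQO1 (0.16, adjusted p = 0.062) and ALDH3A1 (0.013, adjusted p = 0.94) did not pass.

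The RefSeq promoter window of CYP1A1, 300 bases around the start (GRCh38.p14, chr15:74725479-74725778, minus strand), is shown because this gene separated the concentrations but did not pass against control at the weaker extract. Capitals mark GCGTG, the core of the xenobiotic response element that the AhR complex binds, which begins 57 bases before the start. Searched on both strands, the core is found in 36.5% of 35116 such promoter windows, so that its presence describes the sequence and names no site.
CYP1A1: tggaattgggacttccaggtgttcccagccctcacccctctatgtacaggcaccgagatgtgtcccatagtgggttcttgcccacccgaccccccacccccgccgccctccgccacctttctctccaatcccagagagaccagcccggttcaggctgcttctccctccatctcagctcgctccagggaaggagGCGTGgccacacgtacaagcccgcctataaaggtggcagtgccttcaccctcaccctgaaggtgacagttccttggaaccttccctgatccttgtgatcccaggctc

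Chemokines were among the higher genes. Of 18 measured, 6 passed and all of these were higher at CSE 5%, against 4.35% of all genes, while the median of the list was 0.053. CCL2 (8006433), the monocyte attractant MCP-1, was read at 9.04, 8.92 and 9.39 at CSE 1% and at 11.02, 11.18 and 11.02 at CSE 5%. Its difference of 1.95 (standard error 0.15, adjusted p = 8.8e-10) made it the largest of the list, 3.88-fold. The neutrophil attractant CXCL8 (8095680), interleukin-8, went from 9.34, 9.23 and 8.94 to 10.51, 10.70 and 10.56, a difference of 1.42 (adjusted p = 3.7e-08). CXCL1 (8095697), with the same receptor, went from 9.41, 9.43 and 9.64 to 10.79, 10.93 and 10.94, a difference of 1.39 (adjusted p = 8.8e-10). For CXCL2 and CXCL5, further neutrophil attractants, the differences were 0.94 and 0.82 (adjusted p = 4.0e-06 and 2.9e-05). CCL20 (8048864), which draws dendritic cells and Th17 cells, was low at CSE 1% with 5.78, 5.76 and 5.57 and reached 6.58, 7.07 and 6.53, a difference of 1.02 (adjusted p = 2.4e-04). CXCL3 and CXCL6 of the same family differed by 0.25 and -0.053 (adjusted p = 0.15 and 0.75). All 6 chemokines kept their call in the fit of the 6 arrays alone and when any of the 6 was left out.

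Feedback and effector genes of NF-kB accompanied the chemokines. Of 23 measured, 8 passed and all were higher, against 4.35% of all genes, with a list median of 0.25. TNFAIP3 (8122265), the ubiquitin-editing enzyme A20 that shuts NF-kB off, was read at 7.30, 7.25 and 7.33 and at 8.34, 8.43 and 8.58, a difference of 1.16 (standard error 0.09, adjusted p = 8.3e-10). SOD2, the mitochondrial superoxide dismutase, went from 9.13, 8.95 and 8.87 to 9.96, 9.86 and 10.00, a difference of 0.96 (adjusted p = 5.4e-07), and NFKBIZ, a nuclear IkB protein, differed by 0.64 (adjusted p = 1.0e-05). LCN2, the siderophore-binding lipocalin of neutrophils and airway epithelium, had levels of 8.26, 8.41 and 8.88 and of 9.51, 10.11 and 9.42, a difference of 1.16 (adjusted p = 4.1e-04, and 0.054 in the 6 arrays alone). The fit of the 6 arrays alone kept 3 of the 8 calls, while the higher genes over all genes fell from 802 to 198.

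Promoter windows of 5 of these genes are shown because they carry letters that match the NF-kB motif, marked in capitals; all are GRCh38.p14 from RefSeq, 300 bases around the start. CXCL1 (chr4:73869143-73869442, plus strand), CXCL2 (chr4:74099146-74099445, minus strand) and CXCL5 (chr4:73998628-73998927, minus strand) lie near each other on chromosome 4, and each matches on both strands with an overlap, first at 79, 78 and 91 bases before the start. CCL20 (chr2:227813592-227813891, plus strand) holds 1 match, 79 bases before the start, and TNFAIP3 (chr6:137867009-137867308, plus strand) holds 2, beginning 67 and 55 bases before it. A match to this motif on either strand occurs in 5.91% of 35116 such windows. The windows shown were chosen for their match, so that their number is not to be read against that share. Windows of NFKBIZ and LCN2 hold a match too and are not shown, the window of CXCL8 and the 4 windows of SOD2 do not hold these letters, and CCL2 is not in the table of promoters.
CXCL1: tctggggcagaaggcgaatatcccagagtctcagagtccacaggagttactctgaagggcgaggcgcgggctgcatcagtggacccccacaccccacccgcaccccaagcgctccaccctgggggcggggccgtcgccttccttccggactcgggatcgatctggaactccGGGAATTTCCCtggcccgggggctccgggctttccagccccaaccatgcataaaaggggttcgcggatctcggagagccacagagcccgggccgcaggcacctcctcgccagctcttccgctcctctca
CXCL2: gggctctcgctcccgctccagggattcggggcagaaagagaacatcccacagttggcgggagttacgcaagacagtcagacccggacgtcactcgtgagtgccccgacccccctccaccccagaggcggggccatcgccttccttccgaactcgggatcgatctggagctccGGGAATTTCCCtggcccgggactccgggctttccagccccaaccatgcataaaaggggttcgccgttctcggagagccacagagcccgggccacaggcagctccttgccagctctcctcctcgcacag
CXCL5: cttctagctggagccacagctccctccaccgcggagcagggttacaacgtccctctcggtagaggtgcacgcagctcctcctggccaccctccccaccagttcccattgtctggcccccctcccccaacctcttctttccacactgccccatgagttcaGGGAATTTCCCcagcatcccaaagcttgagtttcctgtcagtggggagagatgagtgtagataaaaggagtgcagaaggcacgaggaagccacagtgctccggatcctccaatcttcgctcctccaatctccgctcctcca
CCL20: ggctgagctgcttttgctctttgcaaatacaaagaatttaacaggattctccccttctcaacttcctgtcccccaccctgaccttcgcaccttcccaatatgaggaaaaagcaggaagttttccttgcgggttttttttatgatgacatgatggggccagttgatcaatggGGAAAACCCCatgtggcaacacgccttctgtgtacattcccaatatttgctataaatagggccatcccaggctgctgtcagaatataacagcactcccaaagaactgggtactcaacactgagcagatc
TNFAIP3: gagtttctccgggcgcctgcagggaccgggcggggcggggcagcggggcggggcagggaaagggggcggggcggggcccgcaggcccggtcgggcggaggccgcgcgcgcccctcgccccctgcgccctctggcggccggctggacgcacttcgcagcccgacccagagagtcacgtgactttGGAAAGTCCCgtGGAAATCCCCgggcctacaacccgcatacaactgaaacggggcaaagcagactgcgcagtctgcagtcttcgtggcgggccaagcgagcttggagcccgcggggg

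Some cytokines other than chemokines, and some receptors for cytokines, were also higher. Of 20 interleukins, colony-stimulating factors and related ligands, 4 passed and all 4 were higher, against 4.35% of all genes: TNFSF10, IL1A, CSF1 and IL32. The median of this list was 0.073, and lay between -0.00035 and 0.085 when any array was left out. At an unadjusted limma p under 0.05, 4 of the list were higher and 3 lower. IL1A (8054712), an alarmin that epithelial cells release when injured, went from 5.65, 5.69 and 5.49 to 6.78, 6.92 and 6.76, a difference of 1.21 (standard error 0.099, adjusted p = 2.0e-09). TNFSF10 (8092169), the death ligand TRAIL, was read at 6.49, 6.38 and 6.02 and at 7.48, 7.59 and 7.47, a difference of 1.22 (adjusted p = 3.4e-05). The macrophage growth factor CSF1 differed by 0.80 (adjusted p = 7.6e-07), and IL32 by 0.54 (adjusted p = 0.004, and 0.14 in the 6 arrays alone). IL6 did not pass, at 4.59 and 4.51 (adjusted p = 0.73). Among 24 receptors, 7 passed and all were higher, beside the same 4.35% of all genes, with a list median of 0.12. The count was 4 in the 6 arrays alone and 4 without CSE 5% replicate 3. The largest difference was that of the interferon-gamma receptor chain IFNGR1, 0.94 (adjusted p = 8.9e-04), from 9.53, 9.30 and 9.15 to 10.31, 10.18 and 10.32. Here the CSE 1% arrays had the order of the first principal component. CLEC4E (7960900), the pattern receptor Mincle, went from 5.24, 5.13 and 5.26 to 6.45, 6.78 and 6.32, a difference of 1.30 (adjusted p = 1.5e-05).

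Complement components and iron genes rose in part. Of 26 complement and acute-phase genes, 5 were higher and 1 lower, beside 4.35% and 3.49% of all genes. Factor B (CFB) differed by 0.74 (adjusted p = 2.1e-05) and the C1 proteases C1R and C1S by 0.62 and 0.61 (adjusted p = 3.2e-05 and 5.0e-04, the latter 0.051 in the 6 arrays alone, where CFB had 0.073), while CD55, which protects cells from complement, was lower, from 11.37, 11.40 and 11.48 to 10.74, 10.61 and 10.55 (difference -0.78, adjusted p = 3.9e-06). In the 6 arrays alone only 1 of the higher genes of this list passed. Ceruloplasmin (CP), a copper ferroxidase, was read at 9.81, 9.35 and 8.88 at CSE 1%, in the order of the first principal component, and at 10.61, 10.38 and 10.45 at CSE 5%; its difference of 1.14 (adjusted p = 0.0096) did not pass without CSE 1% replicate 3 (0.90, adjusted p = 0.096) or in the 6 arrays alone. Of 16 genes of heme and iron, 5 passed and all were higher, beside the same 4.35% of all genes. The metalloreductases STEAP1 and STEAP2 differed by 1.07 and 1.06 (adjusted p = 4.0e-05 and 3.4e-04), and the iron exporter ferroportin (SLC40A1) went from 9.01, 8.70 and 8.70 to 9.83, 9.78 and 9.84, a difference of 1.01 (adjusted p = 3.5e-05). Heme oxygenase HMOX1 stood at 7.79 and 8.11 (adjusted p = 0.32).

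**Figure D2:**
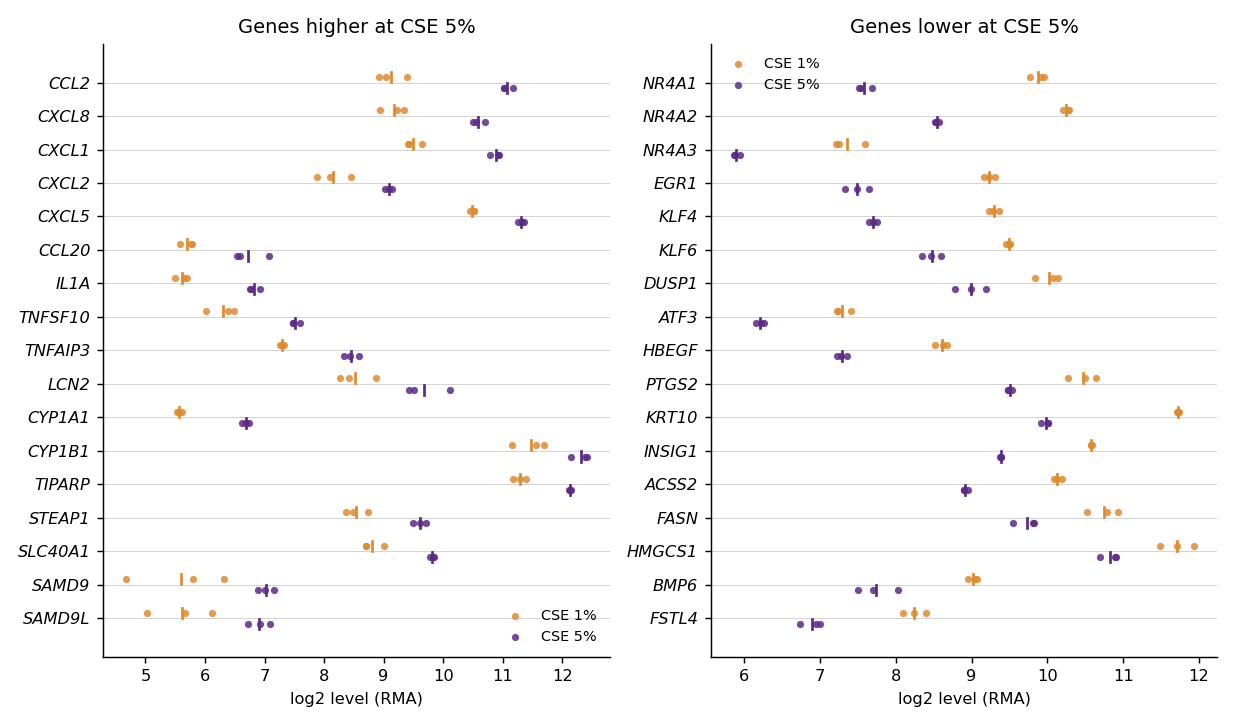
Log2 levels (horizontal) of named genes on the 3 arrays of CSE 1% (orange) and the 3 of CSE 5% (purple) at 3 weeks, with a short line at each mean; 17 genes higher at CSE 5% on the left and 17 lower ones on the right. The groups lie apart in every gene shown, which the choice required of genes named by size. The CSE 1% arrays spread widest in SAMD9, from 4.68 to 6.32.

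Interferon-stimulated genes went both ways. Of 29 measured, 7 were higher and 3 lower, beside 4.35% and 3.49% of all genes, with a median of 0.0043. HERC6 and IFIT3 were higher by 0.75 and 0.78 (adjusted p = 1.3e-06 and 6.0e-05), and the 2'-5'-oligoadenylate synthetases OAS1 and OAS3 were lower, with differences of -0.55 and -0.52 (adjusted p = 1.1e-04 and 0.0038). OAS1 went from 10.37, 10.33 and 10.37 to 9.68, 9.97 and 9.78. OAS3 did not pass in the 6 arrays alone (adjusted p = 0.10) or without CSE 1% replicate 3 (0.054). The neighbouring genes SAMD9 and SAMD9L, restriction factors of poxviruses, had differences of 1.43 and 1.30. SAMD9 (8140967) was read at 6.32, 5.79 and 4.68 at CSE 1% and at 7.15, 6.90 and 7.01 at CSE 5%, so that the spread within CSE 1%, in the order of the first principal component, exceeded the difference between the groups. Its adjusted p of 0.018 rose to 0.19 without CSE 1% replicate 3, where the difference was 0.97, and to 0.072 and 0.056 without CSE 5% replicates 1 and 3. SAMD9L had the same order, 6.12, 5.67 and 5.03, and an adjusted p of 0.0018, or 0.058 in the 6 arrays alone.

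This order ran through many of the higher genes. Of the 37 called higher, 24 (64.9%) had the highest level at CSE 1% replicate 1 and the lowest at replicate 3, against 22.4% of all genes and 7 of the 22 called lower. The SD over the CSE 1% arrays was above 0.3 in 15 of the 37 and in none of the 22, and over the CSE 5% arrays in 2 and none. TEX9, FAM171B and TM4SF18, genes of little known function, were read at 7.01, 6.42 and 5.59, at 9.37, 8.98 and 8.40 and at 9.82, 9.34 and 8.84 on the CSE 1% arrays, and at 7.77, 7.68 and 7.77, at 10.24, 10.01 and 10.17 and at 10.56, 10.53 and 10.44 on the CSE 5% arrays. Their differences were 1.40, 1.22 and 1.18 (adjusted p = 0.0012, 0.002 and 0.0033, and 0.082, 0.051 and 0.052 in the 6 arrays alone). The phospholipase A2 receptor PLA2R1 went from 8.12, 7.83 and 7.43 to 9.06, 8.86 and 9.12, a difference of 1.23 (adjusted p = 2.4e-05). Without CSE 1% replicate 3, 25 genes were called higher, 21 of them from the 37; without replicate 1, 72 were, all 37 among them. Among the genes described above, CYP1B1, TIPARP, CXCL8, CCL20, TNFSF10, SOD2, STEAP2 and SLC40A1 were among those with this order at CSE 1%. CCL2, CXCL1, TNFAIP3 and CYP1A1 did not have it. Of those described below, CDH6, ITGB6, HBEGF, PTGS2, HMGCS1, NR4A3, DHRS9 and HSD17B13 were among those that had it too, as was INSIG1 with almost no spread.

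KLRC4-KLRK1 (7961173), a readthrough locus of natural killer cell lectin receptors, had the largest difference of all, 2.67 (standard error 0.37, adjusted p = 2.0e-05). It was low and variable at CSE 1%, 3.86, 4.92 and 4.15, and reached 7.47, 6.47 and 7.01 at CSE 5%. Its neighbours KLRC3 and KLRC2 went from 4.85, 4.98 and 4.38 to 6.09, 6.39 and 6.07 and from 4.65, 4.54 and 4.48 to 5.68, 5.75 and 5.74, differences of 1.45 and 1.17 (adjusted p = 5.2e-06 and 1.4e-05). These genes are near-identical in parts, so that probes may be shared and which of them was expressed is uncertain. KLRC1 and the partner chain KLRD1 of the same locus differed by 0.082 and -0.0040 (adjusted p = 0.80 and 0.99), the pan-leukocyte marker PTPRC was read at 3.77 and 3.70, and of 7 leukocyte markers 1, CD68, passed (0.46, adjusted p = 0.020). CD68 did not pass in the 6 arrays alone (adjusted p = 0.20), nor in the fit of the 3-week arrays (0.096) nor in 4 of the 6 fits with an array left out (0.061 to 0.12), namely replicate 1 or 2 of CSE 1% and replicate 2 or 3 of CSE 5%. Of 7 fibroblast and 6 endothelial markers none passed in limma, with 2 and 0 at an unadjusted p under 0.05. Among all genes 4.35% were higher and 3.49% lower. With lists of 6 or 7 markers, counts of 0 or 1 cannot be told from these shares. CDH6 (8104663), the kidney and mesenchymal cadherin K-cadherin, went from 7.93, 7.86 and 7.71 to 9.02, 8.84 and 9.19, a difference of 1.19 (adjusted p = 3.1e-07).

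The lower genes were led by nuclear receptors and transcription factors of the immediate early class, which cells induce within minutes of a stimulus without new protein synthesis. Of 29 immediate early and ERK feedback genes, 16 were lower and 2 higher at CSE 5%, with a median of -0.40, against 3.49% of all genes lower. NR4A1 (7955589), the orphan receptor Nur77, was read at 9.78, 9.95 and 9.92 at CSE 1% and at 7.68, 7.51 and 7.54 at CSE 5%. This difference of -2.30 (standard error 0.11, adjusted p = 1.9e-14), 4.93-fold lower, was the largest downward. Its relatives NR4A2 (8055952) and NR4A3 (8156848) fell along with it. NR4A2 went from 10.27, 10.28 and 10.20 to 8.57, 8.52 and 8.54 (difference -1.71, adjusted p = 2.0e-11). NR4A3 went from 7.59, 7.25 and 7.21 to 5.88, 5.86 and 5.95 (difference -1.45, adjusted p = 8.3e-10). EGR1 (8108370), a zinc finger factor induced by growth factors, had levels of 9.31, 9.16 and 9.22 and of 7.64, 7.49 and 7.33 (difference -1.75, standard error 0.17, adjusted p = 5.8e-08). The Kruppel-like factor KLF4 (8163002) went from 9.23, 9.29 and 9.36 to 7.65, 7.70 and 7.75 (difference -1.59, adjusted p = 7.0e-13), and KLF6 differed by -1.02 (adjusted p = 3.6e-10). In all these genes the 3 arrays of a group lay close together and far from the other group. In the fit of the 6 arrays alone 10 of the list were lower, and when any array was left out 11 to 17.

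The MAP kinase phosphatase DUSP1 (8115831) went from 9.84, 10.07 and 10.15 to 8.78, 9.19 and 8.99 (difference -1.03, adjusted p = 3.0e-05), and ERRFI1, an inhibitor of the EGF receptor, differed by -0.48 (adjusted p = 4.6e-05). HBEGF (8114572), a ligand of that receptor, was read at 8.68, 8.62 and 8.52 and at 7.36, 7.27 and 7.22, a difference of -1.32 (standard error 0.12, adjusted p = 1.1e-08). Of 13 EGF receptors, ligands and regulators 2 were lower, HBEGF and ERRFI1, and 1 was higher, the ligand TGFA (0.49, adjusted p = 0.0087). ATF3 (7909610), a stress-induced factor of the ATF/CREB family, went from 7.23, 7.40 and 7.22 to 6.22, 6.16 and 6.25 (difference -1.07, adjusted p = 1.0e-06). TRIB3, a pseudokinase of the ATF4 pathway, differed by -0.85 (adjusted p = 3.7e-05), although of 24 genes of ATF4 and the unfolded protein response 3 were higher and 2 lower. Over all genes, beside which this list and that of the EGF receptors stand, 4.35% were higher and 3.49% lower. PTGS2, the inducible cyclooxygenase COX-2, was lower too, from 10.64, 10.49 and 10.27 to 9.49, 9.48 and 9.53 (difference -0.97, adjusted p = 1.7e-05), whereas the NF-kB genes above were higher.

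The promoter window of EGR1 (RefSeq, GRCh38.p14, chr5:138465229-138465528, plus strand, 300 bases around the start) is shown for its repeated CArG boxes, the sequence bound by serum response factor, in capitals. They begin 105 and 83 bases before the start, and a CArG box on either strand occurs in 1.29% of the 35116 windows. The window was chosen for its boxes, and those of the other lower genes were not looked up. The share therefore says nothing on how these genes were lowered.
EGR1: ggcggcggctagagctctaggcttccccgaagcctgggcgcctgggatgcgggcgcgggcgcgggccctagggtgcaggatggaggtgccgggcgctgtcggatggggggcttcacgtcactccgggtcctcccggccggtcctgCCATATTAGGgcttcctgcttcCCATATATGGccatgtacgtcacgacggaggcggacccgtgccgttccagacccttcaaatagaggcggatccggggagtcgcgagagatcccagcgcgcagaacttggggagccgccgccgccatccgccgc

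Many genes of cholesterol and fatty acid synthesis were lower. Of 24 genes, 13 passed, all of them lower, against 3.49% of all genes, and the median was -0.44. INSIG1 (8137526), the sterol sensor that holds SREBP in the endoplasmic reticulum and is itself an SREBP target, was read at 10.59, 10.57 and 10.57 and at 9.39, 9.37 and 9.39, a difference of -1.19 (standard error 0.076, adjusted p = 1.7e-11) with almost no spread within the groups. FDPS and MVD of the mevalonate pathway differed by -0.91 and -0.81 (adjusted p = 3.8e-07 and 3.3e-06). HMGCS1, which forms HMG-CoA, went from 11.94, 11.71 and 11.48 to 10.91, 10.69 and 10.89 (difference -0.88, adjusted p = 5.1e-05). Fatty acid synthase (FASN) had levels of 10.52, 10.79 and 10.93 and of 9.81, 9.55 and 9.82 (difference -1.02, adjusted p = 1.5e-04), and ACSS2 (8062041), which makes acetyl-CoA from acetate, went from 10.08, 10.13 and 10.19 to 8.90, 8.96 and 8.90 (difference -1.21, adjusted p = 1.6e-10). In the 6 arrays alone 9 genes of the list passed, and when any array was left out 11 to 13.

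Many genes of cell division were moderately lower. Of 30 DNA replication and G1/S genes, 19 passed, all lower, with a median of -0.41, and of 29 mitosis genes 10 passed, all lower, with a median of -0.35. Of all genes 3.49% were lower. The differences were small beside those of the immediate early genes, at most -0.69 in the replication list and -0.62 in the mitosis list. MCM7 of the replicative helicase went from 9.51, 9.72 and 9.81 to 9.06, 9.02 and 9.03 (difference -0.64, adjusted p = 1.3e-05), and TYMS, the target of fluorouracil, from 10.12, 10.03 and 10.14 to 9.39, 9.56 and 9.54 (difference -0.60, adjusted p = 1.5e-04). CDC45, E2F1, MKI67, TPX2 and PLK1 differed by -0.69, -0.58, -0.60, -0.55 and -0.62 (adjusted p = 2.2e-04, 3.0e-04, 0.0026, 0.0018 and 0.007). These counts, like those over all genes, leaned on the spread estimated over all 36 arrays. The 6 arrays alone kept 4 of the 19 and 1 of the 10, while the lower genes over all genes fell from 643 to 136. Leaving out CSE 1% replicate 3 gave 3 mitosis genes. Leaving out CSE 5% replicate 1 gave 4 of them and 12 replication genes, and leaving out CSE 5% replicate 3 gave 5 mitosis genes. CDC45, E2F1, TPX2 and PLK1 did not pass in the 6 arrays alone (adjusted p = 0.051, 0.054, 0.084 and 0.070), and PLK1 not without CSE 1% replicate 3 or CSE 5% replicate 1 either (0.065 and 0.057). The medians of the lists moved little, from -0.43 to -0.36 for replication and from -0.38 to -0.33 for mitosis when any array was left out.

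**Figure D3:**
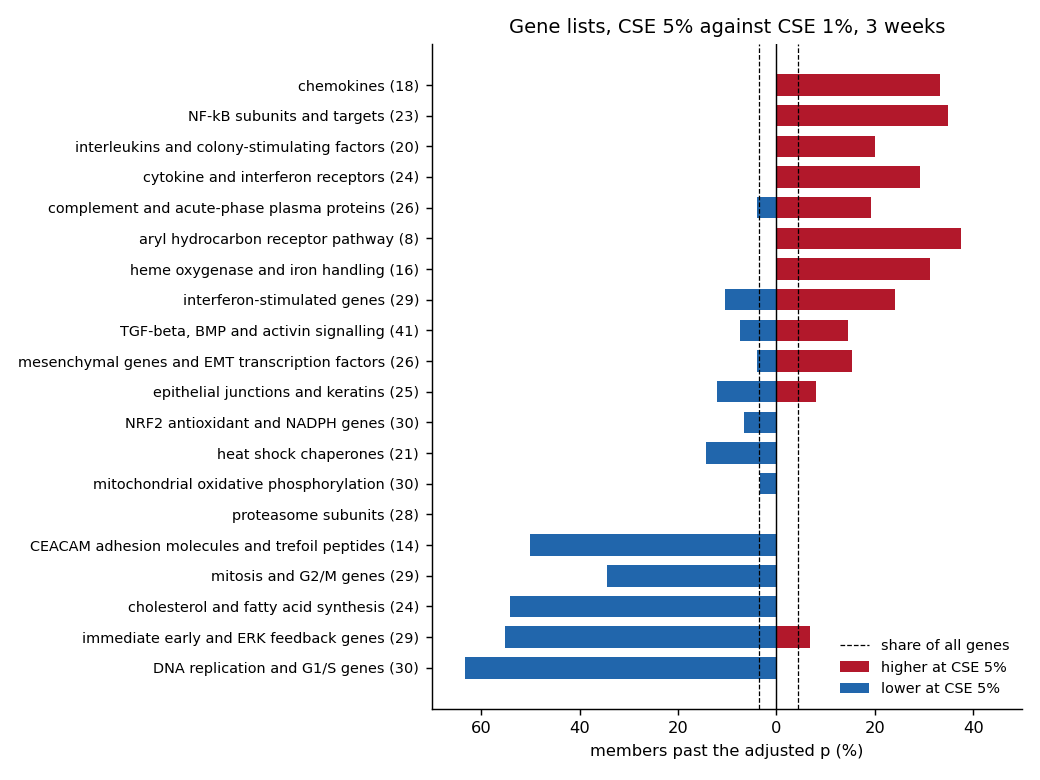
Share of the measured members (number in brackets) of 20 gene lists that passed the adjusted p at 3 weeks, higher at CSE 5% to the right in red and lower to the left in blue; dashed lines mark the share of all genes, 4.35% higher and 3.49% lower. Chemokine, NF-kB, receptor and AhR lists extend to the right, and replication, immediate early, cholesterol and CEACAM lists to the left.

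KRT10 (8015104), a keratin of the differentiated epidermis, had one of the most sharply separated levels, 11.71, 11.72 and 11.74 at CSE 1% and 10.01, 10.01 and 9.91 at CSE 5%, a difference of -1.75 (standard error 0.092, adjusted p = 3.0e-13). CEACAM, mucin and trefoil genes were lower in part: of 14 measured, 7 passed, all lower, against 3.49% of all genes, with a median of -0.31. MUC16, the membrane mucin CA125, went from 8.12, 8.15 and 8.20 to 7.15, 6.88 and 7.26 (difference -1.06, adjusted p = 3.9e-07), and the airway mucin MUC5B, the adhesion protein CEACAM5 and the trefoil peptide TFF1 differed by -0.67, -0.48 and -0.61 (adjusted p = 0.0028, 7.4e-05 and 0.0016). In the 6 arrays alone 3 of the 7 passed, without MUC5B and TFF1 (adjusted p = 0.074 and 0.067). Signalling genes followed: BMP6 (8116818), a bone morphogenetic protein, went from 8.95, 9.04 and 9.07 to 7.50, 7.69 and 8.03 (difference -1.28, adjusted p = 7.0e-08), and the follistatin-like gene FSTL4 (8114119) from 8.09, 8.24 and 8.39 to 6.74, 7.00 and 6.94 (difference -1.35, adjusted p = 6.3e-10). The retinol dehydrogenase DHRS9 and the lipid droplet enzyme HSD17B13 differed by -1.33 and -1.13 (adjusted p = 2.5e-06 and 1.2e-05). The neighbouring olfactory receptors OR51E2 and OR51E1, found outside the nose in prostate and airway, differed by -1.11 and -1.04 (adjusted p = 5.1e-06 and 0.0012).

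Of 15 measured genes that the study names, 7 passed and all of these were higher at CSE 5%, against 4.35% of all genes. The 15 are genes of mesenchymal transition and TGF-beta signalling, apart from the chemokine CCL2, which is counted with the chemokines too. The study chose them on this series, so the count is no independent evidence. The largest was CCL2, above. The integrin chain ITGB6 (8056184), which activates latent TGF-beta, went from 7.28, 6.91 and 6.66 to 7.98, 7.88 and 8.07 (difference 1.02, adjusted p = 5.2e-05). MMP7 (7951217), matrilysin, went from 11.03, 10.84 and 10.85 to 11.86, 11.92 and 11.75 (difference 0.94, adjusted p = 0.0016). TGFB2 and the receptor TGFBR2 differed by 0.84 and 0.66 (adjusted p = 8.8e-06 and 1.1e-05). Vimentin (VIM) and N-cadherin (CDH2), the filament protein and the cadherin of mesenchymal cells, differed by 0.31 and 0.36 (adjusted p = 0.018 and 0.031). VIM was read at 10.13, 10.20 and 10.49 and at 10.52, 10.67 and 10.56, so that CSE 1% replicate 3 lay just under the lowest CSE 5% array. Neither gene passed in the fit of the 3-week arrays (adjusted p = 0.095 and 0.065) or without CSE 1% replicate 1 (0.086 and 0.105) or 2 (0.10 and 0.16), nor without CSE 5% replicate 2 (0.093 and 0.105), and CDH2 not without CSE 5% replicate 1 or 3 either (0.056 and 0.092).

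Fibronectin (FN1, 8058765) differed by less than the spread between replicates: 11.30, 11.46 and 11.59 at CSE 1% and 11.48, 11.36 and 11.54 at CSE 5%, with overlapping groups and a difference of 0.0070 (standard error 0.10, adjusted p = 0.98) whose sign turned under cyclic loess and under a second quantile normalization. The gelatinase MMP2 and the ligand TGFB1 overlapped too, with differences of 0.076 and 0.049 (standard errors 0.12 and 0.15, adjusted p = 0.8 and 0.91). Against these stood control levels of 9.35, 6.32 and 7.46 and CSE 1% levels of 11.45, 7.50 and 9.16, so that the step of FN1 from control at 3 weeks lay below CSE 1%. At CSE 10% FN1 stood at 10.26, lower than at CSE 5% (difference -1.20, adjusted p = 4.9e-08). This overlap was particular to 3 weeks for FN1, which was higher at CSE 5% by 0.82 at 1 week (adjusted p = 1.8e-06). Its difference at 5 weeks was 0.66 (adjusted p = 1.4e-04). MMP2 and TGFB1 differed by -0.20 and 0.072 at 1 week (adjusted p = 0.49 and 0.92). Their differences at 5 weeks were 0.47 and 0.77 (adjusted p = 0.027 and 0.0022). At 3 weeks E-cadherin (CDH1), MMP9, SMAD2, SMAD3 and ITGAV gave -0.23, -0.22, -0.23, 0.27 and 0.49 (adjusted p = 0.096, 0.19, 0.13, 0.091 and 0.22). ITGAV at CSE 1% had the order of the first principal component, 10.74, 10.46 and 9.89. Of 26 mesenchymal genes and transition factors 4 were higher and 1 lower, ZEB1 with 0.65 (adjusted p = 0.037) among the higher, which was not past the threshold in the 6 arrays alone (adjusted p = 0.17), after centring on housekeeping genes (0.056) or without any array other than CSE 1% replicate 1 (0.061 to 0.29). None of this list passed in limma on the 6 arrays alone, and 0 to 3 were higher when any array was left out, 0 without CSE 1% replicate 2. Of 25 genes of epithelial junctions and keratins 2 were higher and 3 lower (none lower in the 6 arrays alone, 1 without CSE 5% replicate 1 and 5 without CSE 1% replicate 1), and the medians of the transition and epithelial lists were 0.00098 and -0.10. Over all genes 4.35% were higher and 3.49% lower.

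Of 30 NRF2 and NADPH genes 2 passed, both lower, with a median of 0.032, and of 30 genes of oxidative phosphorylation 1, beside 4.35% of all genes higher and 3.49% lower. The NRF2 count was 0 in the 6 arrays alone and 1 without replicate 2 or 3 of either concentration. None of 10 metallothioneins and zinc exporters passed in limma (0 at an unadjusted p under 0.05), nor did any of 28 proteasome subunits (7 at an unadjusted p under 0.05, 2 higher and 5 lower). Among 21 heat shock chaperones 3 were lower (1 in the 6 arrays alone), led by the small heat shock protein CRYAB, from 7.64, 7.68 and 7.97 to 6.84, 7.18 and 6.69 (difference -0.86, adjusted p = 5.8e-05). Of 21 p53 targets 5 were higher and 1 lower, with 2 higher in the 6 arrays alone and 3 without CSE 5% replicate 3. The polo-like kinase PLK2 and TP53INP1, both induced by p53, differed by 0.82 and 0.92 (adjusted p = 1.0e-05 and 3.7e-06). Of 26 genes of glycolysis and hypoxia 2 were higher and 4 lower (1 and 1 in the 6 arrays alone), among the latter the glucose transporter SLC2A3 with -0.65 (adjusted p = 2.1e-05).

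Set beside the controls and CSE 10% of the same week, the genes above fell into different courses over the concentrations. The following gives mean log2 levels in the order control, CSE 1%, CSE 5% and CSE 10%, and these comparisons share arrays with the one above. CCL2 stood at 7.17 ± 0.22, 9.12 ± 0.25, 11.07 ± 0.093 and 10.26 ± 0.14 (SD, n = 3 each), highest at CSE 5% and lower again at CSE 10% (adjusted p of CSE 10% against CSE 5% = 0.0045). TNFAIP3 had the same shape with 6.48 ± 0.086, 7.29 ± 0.038, 8.45 ± 0.12 and 7.73 ± 0.045 (adjusted p = 1.5e-05), as did CLEC4E with 4.46 ± 0.02, 5.21 ± 0.072, 6.52 ± 0.24 and 5.50 ± 0.32 (adjusted p = 0.0018). CCL20 passed against control at CSE 5% only, with 5.61 ± 0.30, 5.70 ± 0.12, 6.73 ± 0.30 and 5.64 ± 0.23 (adjusted p = 5.2e-04). CYP1A1, by contrast, went on upward from 6.68 ± 0.057 at CSE 5% to 7.22 ± 0.11 at CSE 10% (adjusted p = 0.032), while CYP1B1 stood at 12.31 ± 0.15 and 12.37 ± 0.035 (adjusted p = 0.89).

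Some of the lower genes were highest at CSE 1%. KRT10 stood at 9.08 ± 0.027 in control cells, 11.72 ± 0.012 at CSE 1%, 9.98 ± 0.056 at CSE 5% and 8.79 ± 0.12 at CSE 10%, a peak at the weakest extract. HBEGF followed the same course with 7.49 ± 0.047, 8.60 ± 0.083, 7.28 ± 0.069 and 7.02 ± 0.054, and so did EGR1 with 8.47 ± 0.11, 9.23 ± 0.077, 7.49 ± 0.16 and 7.59 ± 0.13. The sterol gene INSIG1 likewise was highest at CSE 1%, with 9.89 ± 0.067, 10.58 ± 0.0094, 9.38 ± 0.0087 and 9.37 ± 0.079. The differences of CSE 1% from control were 2.64 for KRT10, 1.12 for HBEGF, 0.76 for EGR1 and 0.69 for INSIG1 (adjusted p = 5.1e-18, 6.2e-08, 0.0022 and 1.4e-07). NR4A1 instead stood at 10.02 ± 0.19 in control cells and 9.88 ± 0.094 at CSE 1% (adjusted p = 0.52), and at 7.58 ± 0.091 and 7.50 ± 0.0058 at CSE 5% and CSE 10% (adjusted p = 0.8). DUSP1 and OR51E2 had already fallen at CSE 1%: DUSP1 stood at 10.94 ± 0.25, 10.02 ± 0.16, 8.99 ± 0.21 and 8.76 ± 0.087, and OR51E2 at 10.52 ± 0.09, 8.80 ± 0.093, 7.69 ± 0.11 and 7.26 ± 0.18.

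**Figure D4:**
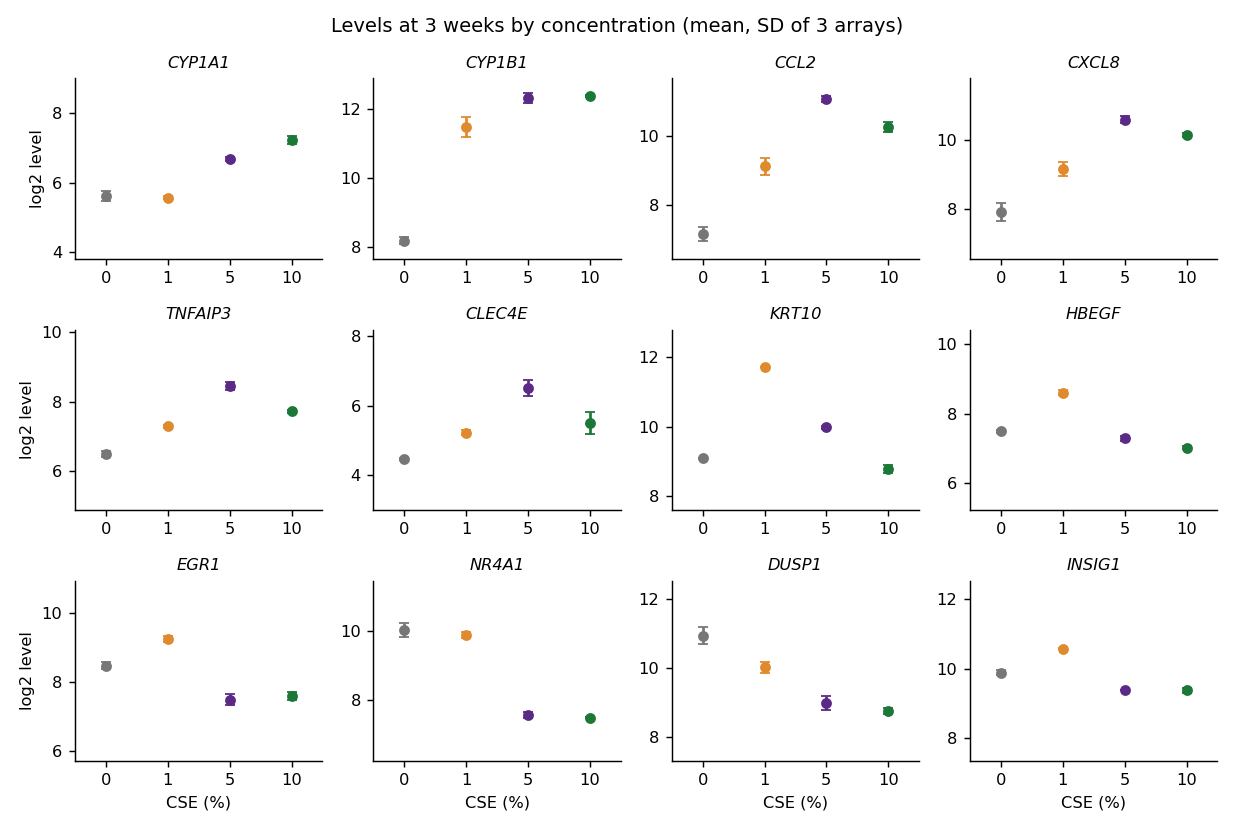
Mean log2 level (vertical) with its SD over 3 arrays of 12 genes in control cells (0) and at CSE 1%, 5% and 10%, all at 3 weeks (horizontal, categories); each panel spans the same number of log2 units. CCL2, TNFAIP3 and CLEC4E peak at CSE 5%, KRT10, HBEGF, EGR1 and INSIG1 at CSE 1%, and NR4A1 steps down between CSE 1% and CSE 5%.

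The difference between the concentrations was then set against that at 1 and at 5 weeks, which rest on other arrays. By the interaction term of the same fit it differed between 3 weeks and 1 week in 762 genes (4.14%), 461 of them above and 301 below the 1-week value, and between 5 and 3 weeks in 40 (0.217%), 33 above and 7 below; a fit of only the 12 arrays concerned gave 6 in place of the 40. Several genes, cytokines among them, gained or turned their difference after the first week. CXCL8 differed by 0.21 at 1 week, 1.42 at 3 weeks and 1.40 at 5 weeks (adjusted p of the change from 1 week = 2.3e-04). TNFSF10 turned from -0.79 at 1 week to 1.22 and 1.03 (adjusted p = 8.7e-06), CP from -1.60 to 1.14 and 1.71 (adjusted p = 5.6e-05), PLK2 from -0.65 to 0.82 and 1.05 (adjusted p = 7.0e-07), and CCL20 from -0.68 to 1.02, with 0.29 at 5 weeks (adjusted p = 6.2e-05). CCL2 and IL1A were higher from the first week, by 1.72 and 1.65, and did not pass the test of a change (adjusted p = 0.72 and 0.1).

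The differences of several lower genes were smaller at 5 weeks. NR4A1 was -2.78 at 1 week, -2.30 at 3 weeks and -1.04 at 5 weeks (adjusted p of the change from 3 to 5 weeks = 7.4e-05). NR4A2 went from -2.04 and -1.71 to -0.49 (adjusted p = 1.6e-04), INSIG1 from -1.92 and -1.19 to -0.21 (adjusted p = 2.2e-05) and PTGS2 from -2.09 and -0.97 to -0.10 (adjusted p = 0.048). KLF4 and HBEGF had their widest difference at 3 weeks. KLF4 differed by -0.63, -1.59 and -0.63 at 1, 3 and 5 weeks (adjusted p = 1.9e-05 from 1 and 1.6e-04 to 5 weeks), and HBEGF by -0.081, -1.32 and -0.62 (adjusted p = 3.5e-05 and 0.13). KRT10 was far apart at every time, with -1.70, -1.75 and -2.03, and passed neither test of a change (adjusted p = 0.93 and 0.78). TYMS and MKI67 differed more at 1 week than at 3, TYMS by -1.55 against -0.60 (adjusted p = 7.0e-05) and MKI67 by -1.63 against -0.60 (adjusted p = 5.5e-04).

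**Figure D5:**
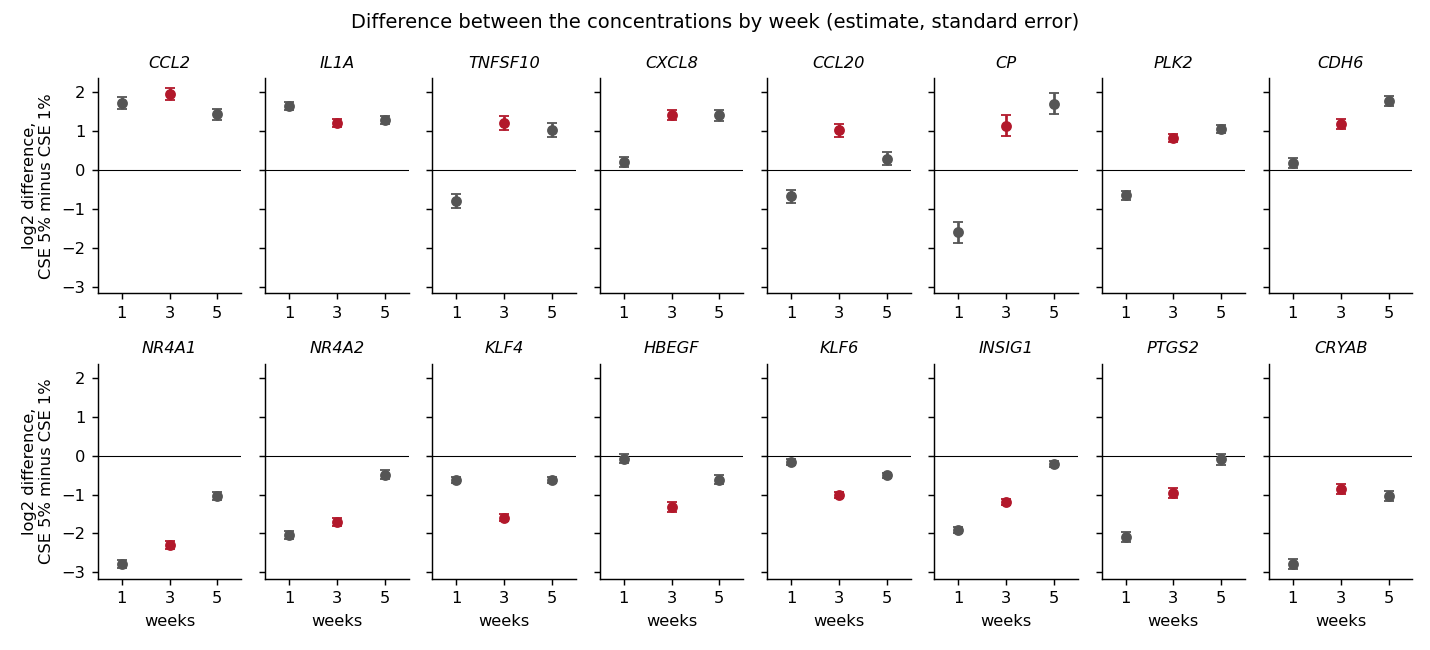
Log2 difference between CSE 5% and CSE 1% (vertical) with its standard error at 1, 3 and 5 weeks (horizontal) for 16 genes, 3 weeks in red. TNFSF10, CCL20, CP and PLK2 cross from below to above 0 between 1 and 3 weeks, and NR4A1, NR4A2, INSIG1 and PTGS2 come nearer to 0 by 5 weeks.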

How the data were processed

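RNA from A549 cells of 12 groups was measured on Affymetrix whole-transcript arrays (Human Gene ST), with 3 arrays per group. The log2 values per transcript cluster were deposited by the authors after RMA, which subtracts background, equalises the arrays by quantiles and combines the probes of a cluster. The submitters' notes list R (2.11.0) with limma, and a genome build was not found in the sources read. Quantile normalization makes array distributions alike (medians 6.72 to 6.91), so a change of most genes one way would be removed. The values were used as deposited, with no filter. Of 33297 clusters, 19460 carry 1 symbol, 1754 several and 12083 none; 769 genes with several clusters were read from the brightest.

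A mean per group was fitted to all 36 arrays with limma 3.58.1 in R 4.3.3 (24 residual and 3.91 prior degrees of freedom, prior proportion 0.01), and CSE 5% was set against CSE 1% at 3 weeks. Calls needed a log2 difference beyond 1 and B above 0, or an adjusted p (Benjamini-Hochberg, across all clusters) under 0.05; single genes and list members are called by the latter. Named by size are the 15 genes per direction with the largest difference among those past the adjusted p whose groups of arrays did not overlap. XIST, genes of the Y chromosome, small RNAs and uncharacterised loci were not named by size. Also named are up to 5 members of each of 41 lists with the smallest p among those past the adjusted p, and the genes the study names. The genes and lists were chosen with earlier results of these data known; CCL20, DUSP1, KLRC2, OR51E1 and members named as not passing were chosen after their values were seen. A further gene that the study names is not analysed here. On simulated data with 33297 clusters, 98% of changes of 1.5 and 100% of -1.5 were called, 78% of changes of 0.585 passed the adjusted p, and 0.0274% of unchanged genes did. The simulated noise was independent between clusters and equally wide in all groups. The order of the CSE 1% arrays and their wider spread were not simulated, so these shares do not cover them. Alternatives were a fit of the 6 arrays or the 3-week arrays alone, the replicate number as a block, cyclic loess, the 60% brightest clusters, array weights, centring on housekeeping genes, a second quantile normalization, a trended and robust variance, the mean of a gene's clusters, B above 3, each array left out and, added after seeing the data, a fit without the control arrays of 5 weeks.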

Additional observations from a re-analysis of the deposited data

Results flagged for a closer look

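The difference between CSE 5% and CSE 1% itself changed with time in the genes below, by the interaction term of the limma fit of all 36 arrays (adjusted p under 0.05). Each value is the log2 difference at 3 weeks minus that at 1 week, unless 5 weeks are named; a positive value means that CSE 5% stood higher relative to CSE 1% than it had at 1 week. It was 2.01 for TNFSF10, 1.21 for CXCL8, 0.63 for CXCL1, 0.80 for CXCL2, 1.00 for CXCL5, 1.70 for CCL20 and 0.46 for CSF1, all of them signals to other cells. The NF-kB genes TNFAIP3 and SOD2 gave 0.67 and 0.73, and the interferon-stimulated HERC6, IFIT3 and OAS1 gave 0.46, 0.59 and 1.20. OAS1 was lower at 3 weeks by a smaller margin than at 1 week.

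These genes of division moved up from a larger deficit at 1 week: TYMS by 0.95, CDC45 by 0.81, MKI67 by 1.03, TPX2 by 1.03 and PLK1 by 0.83. So did FDPS (0.60), INSIG1 (0.72), PTGS2 (1.13), CRYAB (1.93), SLC2A3 (1.38), TFF1 (1.28), FSTL4 (0.89) and OR51E2 (0.84). CP, PLK2, TP53INP1 and TGFB2 gave 2.74, 1.47, 0.83 and 0.93, and KLRC3, FAM171B and CDH6 gave 1.02, 1.37 and 1.00.

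Downward changes from 1 to 3 weeks were -1.24 for HBEGF, -0.97 for KLF4, -0.86 for KLF6, -0.75 for ATF3 and -0.56 for ERRFI1, all of growth factor and stress signalling. MUC16, MUC5B, CDH1 and FN1 gave -0.85, -0.73, -0.63 and -0.81.

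From 3 to 5 weeks the difference moved by 1.26 for NR4A1, 1.22 for NR4A2, 0.95 for NR4A3, 0.97 for KLF4 and 0.51 for KLF6. DHRS9, ACSS2, INSIG1 and PTGS2 gave 1.31, 0.77, 0.98 and 0.87. In all 9 the 2 concentrations were nearer to each other at 5 weeks.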

How the results depend on the processing

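Between 36 and 44 genes were called higher and between 22 and 24 lower under each other normalization, weighting, variance and gene summary run on all clusters and arrays; the 60% brightest clusters held 29 and 20, the 6 arrays alone 29 and 22, and B above 3 left 30 and 22. Counts by adjusted p moved more: 198 higher and 136 lower in the 6 arrays alone, and 1736 and 1294 with array weights. Without the control arrays of 5 weeks, which enter only through the shared spread, they were 1102 and 772. The dose difference changed from 1 week in 1592 genes with array weights and in 1521 after centring on housekeeping genes, and to 5 weeks in 84, in 73 and, in the 12 arrays concerned alone, in 6.

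When each of the 6 arrays was left out in turn, 25 to 72 genes were called higher, 428 to 1123 were higher and 340 to 888 lower by adjusted p, and 25 to 35 changed to 5 weeks. The 72 came without CSE 1% replicate 1 and the 25 without CSE 1% replicate 3. FN1 had the other sign under cyclic loess (-0.0025) and quantile normalization again (-2.2e-05) and ranged from -0.065 to 0.075 over the arrays left out, MMP2 from -0.038 to 0.20 and TGFB1 from -0.083 to 0.18, none past the threshold. Over 160 genes and their alternatives, 2469 of 2706 values kept direction and call, 227 lost the call, 2 gained it and 8 reversed; 82 genes kept both throughout. The causes were not tested.

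Deviations of same-numbered arrays correlated at 0.218, 0.0288 and -0.16, and the highest correlations with another number were 0.0073, 0.33 and 0.19. With 3 arrays per group these values cannot tell whether the replicate numbers pair the arrays. With the replicate number as a block, 36 genes were higher and 22 lower, and 748 and 607 by adjusted p. The number of arrays limits the precision.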
